A study of Rattus norvegicus with 12 samples.

Results

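The genes described here encode the enzymes and regulators with which a cell makes cholesterol and fatty acids. They are 42 named rat genes, chosen by their known function from 14506 genes with a probe set on the array. All 42 were measured. They form a sterol branch of 22 genes and a fatty acid branch of 20 genes. The cells were primary cultures of inner medullary collecting duct (IMCD), the last segment of the kidney tubule, from male SD rats aged 7 weeks. The cultures of all groups first spent 4 days in medium of 640 mOsm/kg. They then stayed at 640 mOsm/kg or were moved to 300 mOsm/kg for a further 24 h or 48 h, which gave 4 groups of 3 arrays: 640 at 24 h, 300 at 24 h, 640 at 48 h and 300 at 48 h. Nothing in the labels tells if the samples of one group are separate animals, cultures or repeat preparations. The p-values therefore reflect the scatter among the arrays of a group, and that scatter may be purely technical. No sample taken before the step was analysed here. The study asked how osmolality sets the expression of genes in collecting duct cells.

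Cholesterol is built from acetyl-CoA. The mevalonate pathway makes isoprenoid units, the units are joined to squalene, and squalene is closed into a ring and trimmed to cholesterol. Fatty acids are built from the same acetyl-CoA by acetyl-CoA carboxylase and fatty acid synthase, with NADPH supplied in part by malic enzyme, and are then desaturated, elongated and joined to glycerol. Many of these genes are activated by the SREBP transcription factors, which SCAP carries out of the endoplasmic reticulum when sterols are low and which INSIG proteins hold back when sterols are high. Cells of the inner medulla live in a medium whose salt and urea change with water balance, and their membranes and organic osmolytes are known to change with it.

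The promoters of 5 genes are printed because the data turn on 4 of them, and because Mvk shows the pattern of short motifs most common in the group. Each line gives the 200 bases before the annotated start of the gene, 5' to 3' on the strand of the gene, from RefSeq (assembly GRCr8). Capitals mark matches to the motifs searched.
Tm7sf2, chr1:212789542-212789741, minus strand: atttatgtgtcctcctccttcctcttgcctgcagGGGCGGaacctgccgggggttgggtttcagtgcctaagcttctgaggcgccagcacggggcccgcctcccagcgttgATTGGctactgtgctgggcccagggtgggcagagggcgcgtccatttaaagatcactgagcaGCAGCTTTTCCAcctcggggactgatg
Insig1, chr4:8057770-8057969, minus strand: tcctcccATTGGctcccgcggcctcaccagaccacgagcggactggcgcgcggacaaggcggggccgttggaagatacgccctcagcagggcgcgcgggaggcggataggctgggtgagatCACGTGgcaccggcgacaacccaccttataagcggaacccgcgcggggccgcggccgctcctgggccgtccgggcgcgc
Mvk, chr12:47819504-47819703, minus strand: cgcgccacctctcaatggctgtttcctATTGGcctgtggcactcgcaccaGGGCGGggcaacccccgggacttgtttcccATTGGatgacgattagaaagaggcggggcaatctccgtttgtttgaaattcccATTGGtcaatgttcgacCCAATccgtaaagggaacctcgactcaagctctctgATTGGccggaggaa
Me1, chr8:96540245-96540444, minus strand: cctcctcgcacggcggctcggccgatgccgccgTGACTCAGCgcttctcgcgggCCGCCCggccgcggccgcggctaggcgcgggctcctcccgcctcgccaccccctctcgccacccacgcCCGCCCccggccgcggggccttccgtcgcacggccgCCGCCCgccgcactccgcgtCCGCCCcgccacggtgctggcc
Scd, chr1:253231732-253231931, minus strand: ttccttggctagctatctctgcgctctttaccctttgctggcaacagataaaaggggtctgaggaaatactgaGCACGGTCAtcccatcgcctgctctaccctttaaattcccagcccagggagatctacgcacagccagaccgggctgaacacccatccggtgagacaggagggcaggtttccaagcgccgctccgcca
The motifs were searched on both strands in windows of 300 bases, from 250 before to 50 after the start. They were the sterol regulatory element TCACNCCAC, the E-box CACGTG, the CCAAT box CCAAT, the GC box GGGCGG, the NFAT5 site TonE, and the antioxidant response element TGACNNNGC, the last added after the sequences had been read. A promoter entry was matched for 33 of the 42 genes. The others were Sqle, Pmvk, Stard4, Acaca, Fdft1, Dgat2, Dgat1, Elovl6 and Fasn.

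The CCAAT box, which NF-Y binds, was present in 24 of the 33 promoters (72.7%), against 37.5% of all 33469 promoters of this length. It was found in 14 of the 18 sterol promoters (77.8%) and in 10 of the 15 fatty acid promoters (66.7%). Mvk and Nsdhl each held 5 copies. The GC box, which Sp1 binds, was likewise present in 24 of 33, against 33.1% of all promoters and 50.1% of the promoters of the genes tested. The E-box was present in 4 of 33 (12.1%, against 6.42%), and one lies 79 bases before the start of Insig1. The sterol regulatory element, in the letters searched, was in 0 of 33 windows, against 1.12% of all promoters. TonE matched in 1 of 33 windows, that of Tm7sf2, against 6.03% of all promoters, on the strand opposite to the gene, between 27 and 16 bases before the start. The antioxidant response element matched in 8 of 33 (24.2%, against 12.1%), among them Me1 and Scd, and overlapped none of the other printed matches in those promoters. Such a match is a description of the letters in these windows and not a site of binding.

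Values are log2 values minus the median of their array, so that a value of 2 lies 2 log2 units above the middle gene of that array. A change is the mean of the 300 arrays minus the mean of the 640 arrays. A gene was called when its Benjamini-Hochberg adjusted p in limma, over all 14506 genes, was under 0.05. Before centring, the array medians lay between 6.81 and 6.97 at 48 h and between 7.43 and 7.58 on 4 arrays at 24 h, while replicate 1 of 300 and replicate 3 of 640 at 24 h lay at 6.89 and 6.90. The counts, branch medians and calls at 24 h are therefore also given without this pair. Arrays of bulk RNA cannot tell fewer cells of a type from less RNA per cell.

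The epithelial keratins Krt8 and Krt18 lay between 4.96 and 6.22 above the array median on all 12 arrays. Of 12 collecting duct markers, 2 fell at 300 at 24 h and 4 at 48 h, including the water channel Aqp2. Some marker levels of the labelled cell type therefore moved with osmolality, while 3 of the 12 changes lay above 0 at each time. The summed level of the 12 markers was 159 to 210 at 640 and 146 to 206 at 300 at 24 h. At 48 h it was 199 to 234 at 640 and 180 to 213 at 300, so the sums overlapped at both times. Such a sum weighs the genes of highest level most. The median over the 12 markers of each gene's deviation from its 12-array mean stood apart at both times. It was 0.09 to 0.35 at 640 and -0.38 to -0.12 at 300 at 24 h. At 48 h it was 0.24 to 0.43 at 640 and -0.35 to -0.13 at 300. Of 8 cell division genes, 4 rose at 24 h and 0 were called at 48 h in limma (6 at an unadjusted p under 0.05). The 24 h calls of Top2a, Ccna2, Bub1 and Aurkb held in 17, 18, 16 and 8 of 21 alternatives, and without the low-median pair their adjusted p was 0.0696, 0.0583, 0.107 and 0.108 in limma. The summed cell division level relative to the array median was 8.82 to 11.1 in 640 and 17.1 to 21.5 in 300 at 24 h, and 6.31 to 7.53 against 9.64 to 11.4 at 48 h. The summed level of 7 adipocyte markers stayed between 3.17 and 4.31 on all arrays, with 0 called by osmolality in limma (0 at an unadjusted p under 0.05). The summed level of 8 fibroblast markers was 11.2 to 15.6 at 640 and 13.5 to 19.9 at 300 at 24 h, and 24.7 to 33.8 and 25.5 to 48.1 at 48 h. Among 8 macrophage markers Csf1r fell at 48 h and among 7 endothelial markers Emcn fell at 48 h. The summed macrophage level was 9.11 to 12.8 at 640 against 7.07 to 11.3 at 300 at 24 h. At 48 h it was 12.2 to 16.4 against 9.54 to 12.3. The median deviation of the macrophage markers, taken as for the collecting duct, was -0.14 to -0.004 at 640 and -0.51 to -0.29 at 300 at 24 h. The summed endothelial level was 4.99 to 6.81 at 640 against 3.88 to 4.92 at 300 at 24 h. At 48 h it was 5.41 to 7.82 against 4.18 to 5.29. The 48 h calls of Csf1r and Emcn each held in 14 of 21 alternatives, with the highest adjusted p at 0.470 and 0.382. Aqp1, on the list of 8 proximal tubule markers, fell at both times and was the 1 gene of that list called. The median change of the list was -0.07 at 24 h and -0.05 at 48 h, with 3 of 8 changes above 0 at each time. Of 6 genes listed for the loop of Henle, Slc14a1 fell at 24 h and Slc12a1 at 48 h. Slc14a1 is not specific to that segment, so its call alone is not read as a change in the loop of Henle. Of the 6 changes 5 were below 0 at 24 h and 6 at 48 h (medians -0.62 and -0.42). The 300 arrays lay wholly below for 4 of 6 at each time, against 4.86% and 7.02% of all genes. The summed level was 2.84 to 3.23 at 640 and 1.74 to 1.99 at 300 at 24 h. At 48 h it was 2.58 to 3.64 at 640 and 1.69 to 2.14 at 300, so the groups stood apart at both times. In limma 0 of 6 intercalated cell markers were called (0 at an unadjusted p under 0.05). Without the low-median pair the 24 h calls of Aqp1 (limma adjusted p = 0.0549), Slc14a1 (0.0639) and the collecting duct marker Avpr2 (0.207) ended, while that of Aqp2 held in all 21 alternatives. The part of these shifts in the lipid gene results was not tested.

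In low osmolality the lipid synthesis genes lay slightly lower as a group, and 3 single genes fell. Tm7sf2, the sterol C14-reductase of the cholesterol pathway, fell at both times. Scd, the stearoyl-CoA desaturase, fell at 24 h, and Me1, the cytosolic malic enzyme, fell at 48 h. At 24 h 2 of the 42 genes were called, both lower (against 0.655% of all genes called in either direction and 0.379% called lower). At 48 h 2 of 42 were called, again both lower, against 1.85% of all genes called and 1.33% called lower. The median half-width of the 95% intervals was 0.40, and the intervals of most uncalled genes crossed 0. The interval lay wholly within a 2-fold change in either direction for 38 of 42 genes at 24 h and for 39 of 42 at 48 h.

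At 24 h 38 of the 42 changes were below 0, where 59.1% of all genes were, and their median was -0.18 against -0.04 for all genes. The 3 arrays at 300 lay below all 3 at 640 for 11 of 42 genes, against 4.86% of all genes, and above them for 0 of 42, against 3.7%. An unadjusted p under 0.05 was found for 8 of 42 genes, against 5.45%. Without the low-median pair 34 of 42 changes at 24 h were below 0 (59.7% of all genes), with a median of -0.15, and the 2 arrays at 300 lay wholly below the 2 at 640 for 19 genes (15.8% of all genes) and above for 1 (9.52%). At 48 h 35 of 42 changes were below 0, where 45.4% of all genes were, with a median of -0.20 against 0.02. The 300 arrays then lay wholly below for 12 genes, against 7.02% of all genes, and wholly above for 1, against 7.83%. An unadjusted p under 0.05 was found for 7 of 42 genes, against 8.18%. Genes of one pathway are not independent of each other, and these counts describe the group without a test.

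**Figure D1:**
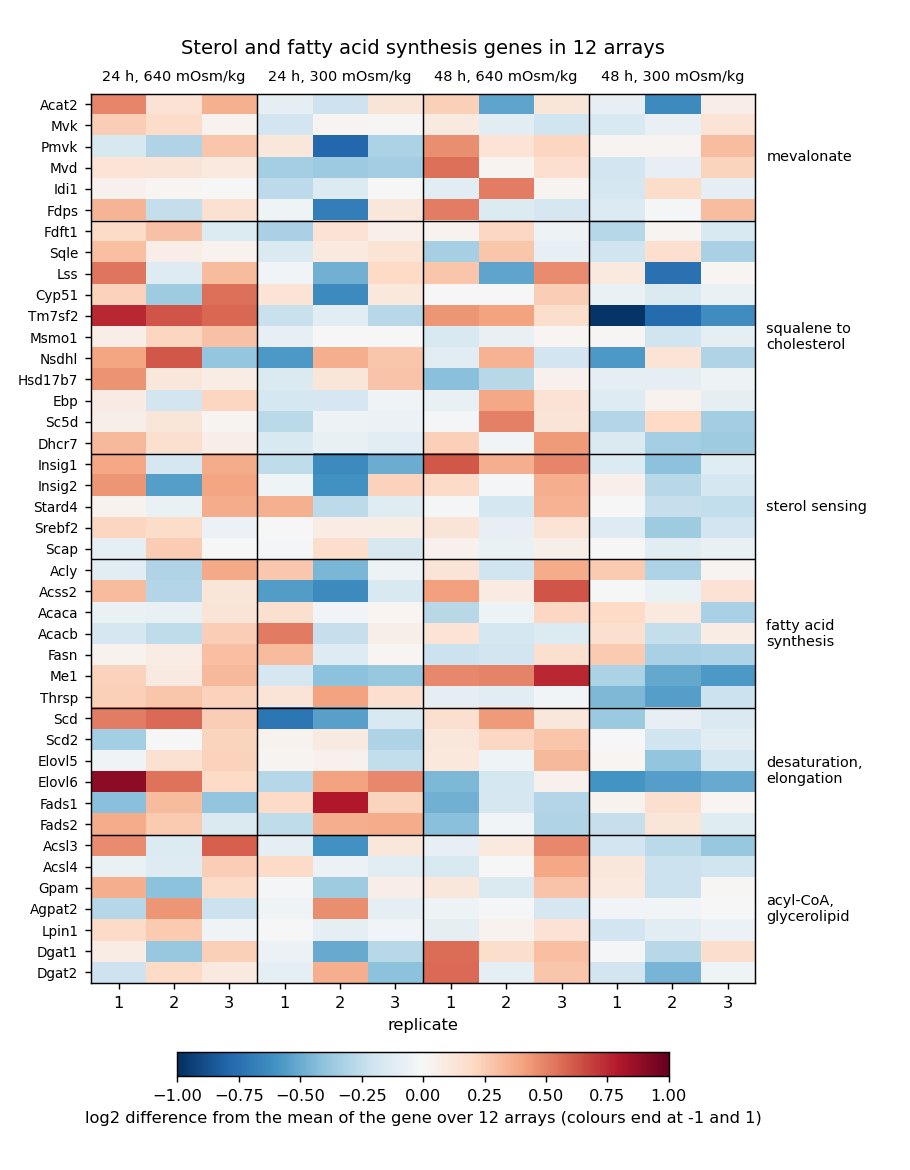
Each cell is the log2 value of 1 gene (row) on 1 array (column), centred on the array median, minus the mean of the gene over 12 arrays, with blue below and red above. Tm7sf2, Me1, Insig1 and Scd show the clearest split between 640 and 300, while most rows differ little between the groups.

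Tm7sf2 encodes an enzyme of the inner nuclear membrane and endoplasmic reticulum that reduces the C14 double bond of sterol intermediates. At 24 h its arrays read 2.68, 2.56 and 2.50 at 640 and 1.70, 1.81 and 1.65 at 300. At 48 h they read 2.37, 2.33 and 2.10 at 640 and 0.94, 1.16 and 1.30 at 300. The groups did not overlap at either time. Tm7sf2 fell by 0.86 ± 0.16 (SE, n = 3 against 3, 1.81-fold, limma adjusted p = 0.0200) at 24 h and by 1.13 ± 0.16 (2.19-fold, adjusted p = 0.000769) at 48 h. The changes at the 2 times differed by -0.27 (95% interval -0.74 to 0.20), which was not called. The 48 h call held in all 21 alternatives, with adjusted p between 0.000471 and 0.0483. The 24 h call held in 14 of 21 and ended on uncentred values (adjusted p = 0.574), in a fit of the 24 h arrays alone (0.147), without the low-median pair (0.113), and without replicate 1 (0.116) or 3 (0.0585) of 640 or replicate 1 (0.0575) or 3 (0.113) of 300, with changes between -0.91 and -0.81 throughout.

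The other enzymes from squalene to cholesterol lay lower by smaller amounts. All 11 genes of this step were below 0 at 24 h (median -0.20) and 10 of 11 at 48 h (median -0.21), and only Tm7sf2 was called. Dhcr7, which makes cholesterol from 7-dehydrocholesterol, had the next smallest p at both times. Its arrays read 2.35, 2.19 and 2.09 at 640 and 1.87, 1.95 and 1.91 at 300 at 24 h, a difference of -0.30 (interval -0.64 to 0.05). At 48 h they read 2.26, 2.00 and 2.45 against 1.88, 1.68 and 1.67, a difference of -0.49 (interval -0.84 to -0.15, adjusted p = 0.211 in limma). The Dhcr7 arrays did not overlap at either time, yet the gene was not called.

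Fdft1, the squalene synthase, differed by -0.16 and -0.20 at 24 h and 48 h, and Sqle, the squalene epoxidase and a rate-limiting enzyme of the pathway, by -0.11 and -0.07. The intervals of Sqle ran from -0.51 to 0.30 and from -0.48 to 0.33. Lss, which closes squalene epoxide to lanosterol, differed by -0.35 and -0.28, and its replicates were far apart, from 1.43 to 2.10 at 640 at 24 h. Cyp51, the lanosterol demethylase, differed by -0.27 and -0.17. The C4-demethylation enzymes Msmo1, Nsdhl and Hsd17b7 differed by -0.22, -0.19 and -0.13 at 24 h and by -0.02, -0.26 and 0.13 at 48 h. Ebp, the sterol isomerase, differed by -0.16 and -0.21, and Sc5d, the sterol C5-desaturase, by -0.20 and -0.35. Cyp51 (at 48 h), Msmo1 and Sc5d (at 24 h) had 300 arrays wholly below the 640 arrays, while the neighbouring enzymes overlapped.

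All 6 genes of the mevalonate pathway were below 0 at 24 h (median -0.28), and 5 of 6 were at 48 h (median -0.16). In limma 0 of 6 were called at either time, and 1 and 0 had an unadjusted p under 0.05. The smallest p belonged to Mvd, the mevalonate diphosphate decarboxylase. At 24 h it read 1.72, 1.71 and 1.68 at 640 and 1.24, 1.22 and 1.24 at 300, so the groups stood apart with little spread. The difference was -0.47 (interval -0.84 to -0.11, adjusted p = 0.518 in limma, which pools its spread with the other groups and genes). At 48 h Mvd read 2.13, 1.61 and 1.75 against 1.39, 1.50 and 1.80, and the groups overlapped (-0.27, interval -0.63 to 0.10).

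The other mevalonate genes were Acat2, the acetoacetyl-CoA thiolase, with differences of -0.39 and -0.16, and the kinases Mvk (-0.21 and 0.05) and Pmvk (-0.27 and -0.15). Idi1, the isopentenyl diphosphate isomerase, differed by -0.16 and -0.17, and Fdps, which makes farnesyl diphosphate, by -0.29 and -0.02. At 24 h Acat2, Mvk, Mvd and Idi1 had 300 arrays wholly below the 640 arrays, and at 48 h 0 of the 6 genes did. Over all genes the shares were 4.86% at 24 h and 7.02% at 48 h. The 5 CCAAT boxes printed for Mvk went with a change that was not called at either time.

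The sterol sensing genes hold Insig1, which retains SCAP in the endoplasmic reticulum and is itself a target of SREBP. Insig1 read 3.32, 2.76 and 3.30 at 640 and 2.68, 2.29 and 2.43 at 300 at 24 h. At 48 h it read 3.55, 3.29 and 3.41 against 2.79, 2.52 and 2.81. The 300 arrays were below all 640 arrays at both times. The difference was -0.66 (interval -1.06 to -0.26, limma adjusted p = 0.198) at 24 h and -0.71 (interval -1.11 to -0.31, adjusted p = 0.0763) at 48 h, so neither was called. Insig1 alone of the 42 genes had a further probe set, which differed by -0.53 and -0.84. With the mean of both probe sets the 48 h difference was called (adjusted p = 0.0302), as it was in 3 other alternatives: cyclic loess (0.0360), the replicate block (0.0317) and without replicate 2 of 640 at 24 h (0.0343).

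Insig2, its paralogue, differed by -0.24 and -0.32, with 640 arrays at 24 h spread from 1.17 to 2.16. Srebf2, the SREBP that drives the sterol genes, differed by -0.07 (interval -0.39 to 0.26) at 24 h and by -0.29 (interval -0.61 to 0.04) at 48 h. At 48 h the 300 arrays of Srebf2 (2.56, 2.33 and 2.49) lay below the 640 arrays (2.82, 2.61 and 2.83). Scap differed by -0.05 and -0.07 and Stard4, a carrier of sterols between membranes, by -0.12 and -0.21. All 5 sterol sensing genes were below 0 at both times. In limma 0 of 5 were called, with 1 (Insig1) at an unadjusted p under 0.05 at each time.

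**Figure D2:**
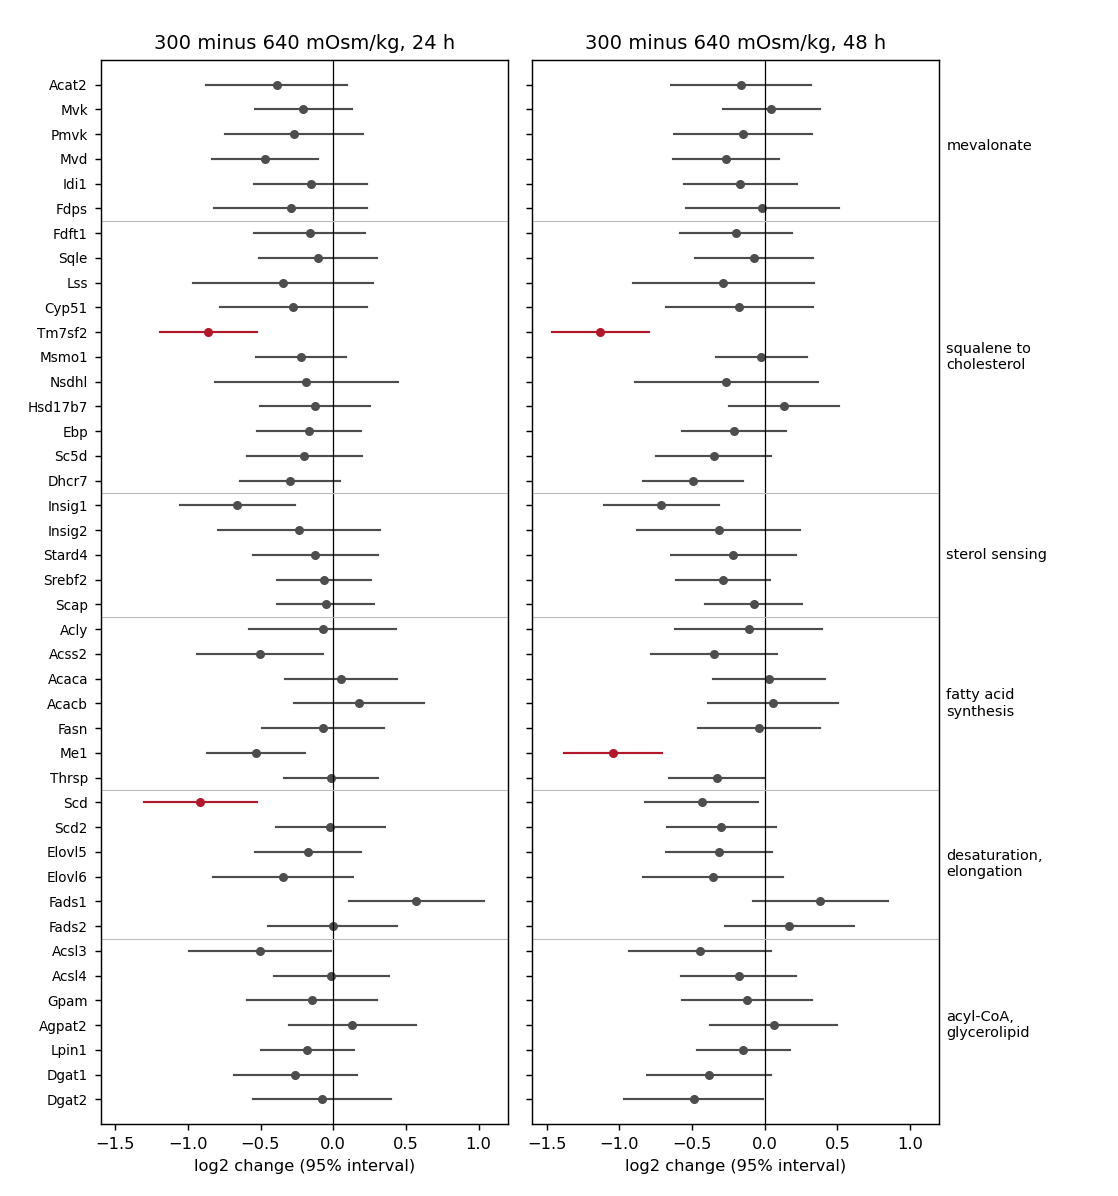
The log2 change from 640 to 300 mOsm/kg (x axis, points) with its 95% interval (bars) is drawn for each of the 42 genes (y axis, by role), at 24 h and at 48 h. The points lie mostly left of 0, with Tm7sf2 at -0.86 and -1.13, and most intervals cross 0.

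Of the fatty acid synthesis genes 1 was called, Me1, which oxidises malate to pyruvate and makes NADPH. At 24 h Me1 read 3.77, 3.63 and 3.87 at 640 and 3.37, 3.13 and 3.16 at 300. At 48 h it read 4.02, 4.04 and 4.29 against 3.23, 3.04 and 2.97. The groups did not overlap at either time, and the gap was wider at 48 h. Me1 fell by 1.04 ± 0.16 (SE, n = 3 against 3, 2.06-fold, limma adjusted p = 0.00160) at 48 h. At 24 h the difference was -0.53 ± 0.16 (adjusted p = 0.247) and was not called. The 48 h change differed from that at 24 h by -0.51 (interval -0.98 to -0.03, unadjusted p = 0.0380, limma adjusted p = 0.9999), which did not pass the adjustment. The 48 h call held in all 21 alternatives, with adjusted p between 0.000672 and 0.0353.

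The central enzymes of the same branch had changes near 0. Fasn, the fatty acid synthase, read 2.19, 2.23 and 2.46 at 640 and 2.48, 2.03 and 2.18 at 300 at 24 h, and 1.94, 1.97 and 2.32 against 2.42, 1.83 and 1.85 at 48 h. Its groups overlapped at both times, and the differences were -0.07 (interval -0.49 to 0.35) and -0.04 (interval -0.46 to 0.38). The acetyl-CoA carboxylases differed by 0.05 and 0.03 for Acaca, the cytosolic form, and by 0.18 and 0.06 for Acacb, the mitochondrial form. Acly, which makes cytosolic acetyl-CoA from citrate, differed by -0.07 and -0.11. Acss2, which makes it from acetate, differed by -0.50 (adjusted p = 0.691) and -0.35, and its groups overlapped at both times. Thrsp, a regulator of lipogenesis, differed by -0.02 at 24 h. At 48 h it read -1.66, -1.66 and -1.59 at 640 and -2.01, -2.11 and -1.78 at 300, without overlap (-0.33, interval -0.66 to -0.01, limma adjusted p = 0.588). Of the 7 genes of fatty acid synthesis 5 were below 0 at each time, with medians of -0.07 and -0.11.

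Scd introduces the double bond of oleate and palmitoleate. At 24 h it read -0.14, -0.09 and -0.41 at 640 and -1.38, -1.20 and -0.81 at 300, a fall of 0.91 ± 0.18 (SE, n = 3 against 3). Scd fell by 1.88-fold at 24 h (limma adjusted p = 0.0342), with no overlap. At 48 h it read -0.49, -0.23 and -0.54 against -1.03, -0.74 and -0.80, which again did not overlap, but the difference of -0.43 (interval -0.82 to -0.05, adjusted p = 0.473) was not called. The changes at the 2 times differed by 0.48 (interval -0.07 to 1.03), which was not called either, so the data do not show that the change at 48 h was smaller. The 24 h call held in 9 of 21 alternatives. It ended on uncentred values (adjusted p = 0.813), with cyclic loess (0.0592), in the fit of 24 h arrays alone (0.240), with the replicate block (0.0667), without the low-median pair (0.144) and on leaving out replicate 1, 2 or 3 of 640 (0.176, 0.100 and 0.0575) or 1 or 2 of 300 (0.136 and 0.116) at 24 h, replicate 1 of 640 at 48 h (0.0559) or replicate 3 of 300 at 48 h (0.0645).

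The other desaturases and the elongases were not called at either time. Scd2, a further stearoyl-CoA desaturase, differed by -0.02 (interval -0.40 to 0.36) at 24 h and by -0.30 (interval -0.67 to 0.08) at 48 h. Fads1, the delta-5 desaturase of polyunsaturated fatty acids, was on the other side of 0. It read 0.98, 1.72 and 1.01 at 640 and 1.60, 2.20 and 1.63 at 300 at 24 h, which overlapped (0.57, interval 0.11 to 1.04, limma adjusted p = 0.582). At 48 h it read 0.92, 1.24 and 1.11 against 1.43, 1.57 and 1.42, with the 300 arrays wholly above (0.38, interval -0.08 to 0.85). Fads1 was the 1 gene of the 42 with 300 arrays wholly above 640 arrays at 48 h. Fads2, the delta-6 desaturase, differed by -0.00 and 0.17. The elongases differed by -0.18 and -0.32 for Elovl5 and by -0.34 and -0.36 for Elovl6.

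**Figure D3:**
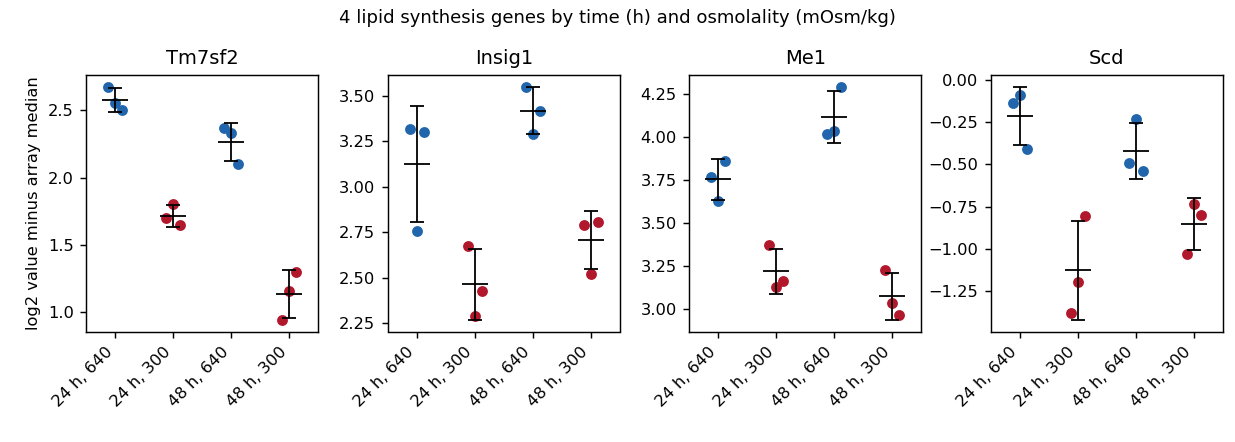
Points are the 3 arrays of each group (x axis, time and osmolality) for Tm7sf2, Insig1, Me1 and Scd, as log2 value minus array median (y axis), with the group mean and SD. In each gene the 300 arrays lie below the 640 arrays of the same time, as for Me1 at 48 h with 2.97 to 3.23 against 4.02 to 4.29.

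Fatty acids are activated and joined to glycerol by the last group, of which 6 of 7 genes were below 0 at each time (medians -0.15 and -0.18). In limma 0 were called, with 1 at an unadjusted p under 0.05 at each time. Acsl3, an acyl-CoA synthetase of the endoplasmic reticulum and lipid droplets, read 3.05, 2.44 and 3.18 at 640 and 2.49, 1.97 and 2.70 at 300 at 24 h. At 48 h it read 2.50, 2.68 and 3.06 against 2.39, 2.31 and 2.20. The groups overlapped at 24 h (-0.50, interval -0.99 to -0.01, limma adjusted p = 0.884) and not at 48 h (-0.44, interval -0.93 to 0.05). Dgat2, which completes triglycerides, differed by -0.08 at 24 h and by -0.49 (interval -0.96 to -0.01, adjusted p = 0.578) at 48 h, and its groups overlapped. Dgat1, which catalyses the same step, differed by -0.26 and -0.38, without overlap at 48 h. The remaining differences were -0.01 and -0.18 for the acyl-CoA synthetase Acsl4, -0.15 and -0.12 for the glycerol-3-phosphate acyltransferase Gpam, 0.13 and 0.06 for the lysophosphatidate acyltransferase Agpat2, and -0.18 and -0.15 for the phosphatidate phosphatase Lpin1.

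Set side by side, all 22 sterol genes were below 0 at 24 h, from -0.86 to -0.05 (median -0.21), and 16 of 20 fatty acid genes were (median -0.08). At 24 h the 300 arrays lay wholly below the 640 arrays for 9 of 22 sterol genes and 2 of 20 fatty acid genes. The share over all genes was 4.86%. At 48 h this held for 5 of 22 sterol genes and 7 of 20 fatty acid genes, against 7.02% of all genes. The branch medians at 48 h were -0.20 and -0.24. All 22 sterol genes were below 0 at 24 h also on uncentred values, after quantile normalization and after cyclic loess, whereas the count of fatty acid genes was 14, 13 and 13 under these scalings. Leaving out 1 array moved the 24 h count to 20 to 22 sterol genes and 12 to 16 fatty acid genes. Without the low-median pair 22 of 22 and 12 of 20 were below 0, with medians of -0.18 and -0.08. Whether the branches differ was not tested.

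For each array the median over a branch of the deviation of each gene from its 12-array mean gives 1 value per branch. In the sterol branch these medians were 0.24, 0.12 and 0.12 at 640 and -0.15, -0.13 and 0.00 at 300 at 24 h. At 48 h they were 0.07, -0.01 and 0.13 against -0.13, -0.10 and -0.09. The 2 osmolalities stood apart at both times. In the fatty acid branch they were 0.06, 0.08 and 0.22 against -0.01, -0.08 and -0.04 at 24 h. At 48 h they were 0.03, -0.03 and 0.24 against -0.01, -0.22 and -0.11, and replicate 1 of 300 overlapped the 640 arrays. Over all genes the same medians ranged from -0.15 to 0.08 at 24 h and from -0.02 to 0.05 at 48 h.

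**Figure D4:**
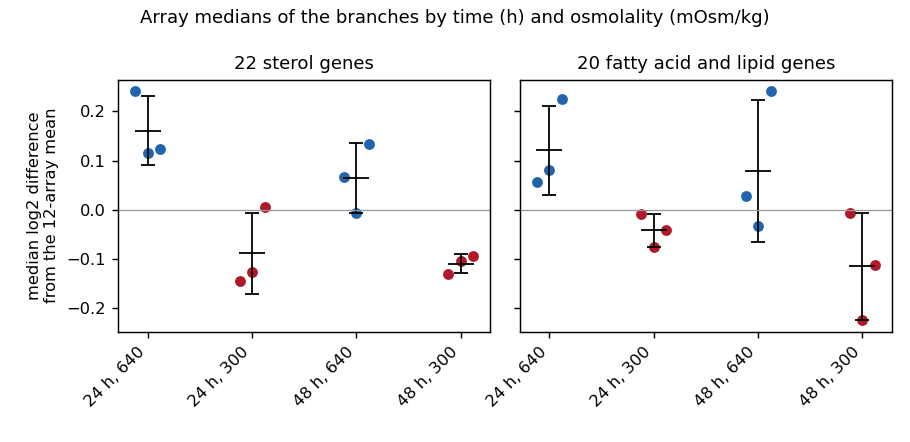
Points are the array medians of the log2 deviation from the 12-array mean (y axis) for the sterol and the fatty acid branch, by time and osmolality (x axis, 3 arrays each), with bars for the group mean. Sterol medians of the 640 arrays lie above those of the 300 arrays at both times, while the fatty acid medians overlap at 48 h.

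The 24 h and 48 h comparisons share no arrays. Across the 42 genes their changes correlated with Pearson's r = 0.74, near the r of 0.71 across all 14506 genes, and within branches with 0.79 (22 sterol genes) and 0.75 (20 fatty acid genes). Genes are not independent points, and the probe sets and the scale are shared. Below 0 at both times were 35 of 42 genes, against 5129 of all 14506 genes. Above 0 at both times were Fads1, Acaca, Acacb and Agpat2, against 4478 of all 14506. In the test of the difference between the 2 times 0 of 42 genes were called, against 0.0276% of all genes, and 1 gene, Me1, had an unadjusted p under 0.05 in limma, against 0.903% of all genes.

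Time in culture was compared within each osmolality. At 640 mOsm/kg 0 of 42 genes were called between 24 h and 48 h, against 0.138% of all genes, and 3 had an unadjusted p under 0.05, against 6.58%. At 300 mOsm/kg 0 of 42 were called, against 0.255%, and 4 had an unadjusted p under 0.05, against 7.62%. The 48 h arrays lay wholly below the 24 h arrays for 5 of 42 genes at 640 (against 4.63% of all genes) and for 5 at 300 (4.85%), and wholly above for 1 at 640 (4.95%) and 2 at 300 (7.29%). The elongase Elovl6, which extends palmitate to stearate, differed most. It read 1.67, 1.32 and 0.97 at 24 h and 0.32, 0.60 and 0.82 at 48 h at 640, a difference of -0.74 (interval -1.22 to -0.25, limma adjusted p = 0.445). At 300 it read 0.49, 1.18 and 1.26 at 24 h and 0.18, 0.23 and 0.27 at 48 h, a difference of -0.75 (interval -1.23 to -0.27, adjusted p = 0.282). The 48 h arrays of Elovl6 lay below all 24 h arrays at both osmolalities. Without the low-median pair the change of Elovl6 at 300 was called (fell by 1.00, adjusted p = 0.0306).

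Thrsp at 300 read -1.43, -1.16 and -1.40 at 24 h, all above its 48 h arrays (-0.64, interval -0.96 to -0.31, limma adjusted p = 0.127). Tm7sf2 at 300 was lower at 48 h than at 24 h by -0.58 (interval -0.92 to -0.25, adjusted p = 0.191), and at 640 by -0.31. Acss2 at 300 was higher at 48 h by 0.48, Me1 at 640 by 0.36, and Hsd17b7 at 640 was lower by -0.43, with 0 of these called. The branch medians over time were -0.05 and -0.02 at 640 and -0.06 and -0.11 at 300 for sterol and fatty acid genes, against 0.00 and 0.05 for all genes. On uncentred values the median of all genes shifted by -0.41 at 640 and -0.38 at 300, so changes over time are given relative to the array median.

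Beside the synthesis genes, 4 lists of related genes were counted. Among 15 other genes of SREBP control and lipid synthesis, which include the SREBP proteases Mbtps1 and Mbtps2 and the liver X receptors Nr1h2 and Nr1h3, 0 were called by osmolality at either time in limma, with 1 and 2 at an unadjusted p under 0.05 (medians -0.11 and -0.07). Mylip, the ubiquitin ligase that degrades lipoprotein receptors, differed by -0.29 and -0.58, with neither called. Among 21 genes of sterol traffic and efflux (medians -0.05 and -0.07) 1 was called. Abcg1, a transporter that exports cholesterol, ranged from 2.25 to 2.51 at 640 and from 1.52 to 1.72 at 300 at 24 h, and from 2.83 to 3.12 and from 1.60 to 2.07 at 48 h. Abcg1 fell by 0.79 (limma adjusted p = 0.0495) at 24 h and by 1.23 (2.35-fold, adjusted p = 0.000769) at 48 h. Its 24 h call held in 6 of 21 alternatives, with adjusted p between 0.0311 and 0.591, and its 48 h call held in all 21. Npc1, which moves cholesterol out of lysosomes, differed by -0.48 and -0.57, with neither called.

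Lists of fat breakdown and storage genes had medians near 0. Among 25 genes of fatty acid oxidation (medians -0.03 and 0.04) 0 were called at 24 h in limma, with 2 at an unadjusted p under 0.05, and 2 fell at 48 h. They were Ppargc1a, a coactivator of mitochondrial genes, which fell by 0.71 (limma adjusted p = 0.0306), and Pdk4, the kinase that shuts pyruvate dehydrogenase, which fell by 0.71 (adjusted p = 0.0418). These 48 h calls held in 13 and 12 of 21 alternatives, with the highest adjusted p at 0.547 and 0.494. Among 20 genes of lipid droplets and lipolysis (medians -0.01 and 0.01) 1 was called. Fabp3, a carrier of fatty acids in the cytosol, ranged from 0.62 to 1.46 at 640 and from -0.76 to -0.64 at 300 at 48 h. Fabp3 fell by 1.71 at 48 h (3.27-fold, limma adjusted p = 0.000187), which held in all 21 alternatives, and differed by -0.89 (adjusted p = 0.0691) at 24 h. Plin2, a coat protein of lipid droplets, was on the other side of 0, at 0.41 and 0.60, with 300 arrays wholly above the 640 arrays at both times (adjusted p = 0.582 and 0.0700).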

How the data were processed

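Total RNA of 12 samples was hybridised to Affymetrix Rat Gene 1.0 ST arrays, 3 per group. Groups and replicate numbers come from the sample titles. Short codes in the descriptions give another osmolality for 2 groups, and the titles and treatment labels were used.

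The authors deposited log2 values per probe set, made by RMA with Affymetrix Power Tools per the submitters' processing notes (neither version is given in the sources used here). Of 27596 probe sets 15310 had 1 gene symbol in the platform's gene table. Where a gene had several, the one with the highest mean over 12 arrays stood for it, which left 14506 genes. Each array was centred on its median. Detection calls were not used here, so which low values are background is unknown, and the number of arrays limits precision.

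R 4.3.3 and limma 3.58.1 (lmFit, then eBayes) fitted 1 mean per group, with 8 residual degrees of freedom. Genes with a p under 0.05 after Benjamini-Hochberg adjustment over all genes were called. The comparisons were osmolality (300 minus 640) within each time, the difference of these changes, and time (48 h minus 24 h) within each osmolality. On simulated data of this size 61% (24 h) and 62% (48 h) of 100 genes changed by 1 log2 unit were recovered. The simulated noise was independent between arrays, whereas some of the real arrays deviated together. No true change smaller than 1 log2 unit was simulated, so the rate does not cover the smaller changes reported here. Array values are given for every called gene and for the gene with the smallest p of each of 6 role lists. Some further array values were added after they had been seen. Of the other lists the called genes are named, and a few more that were chosen after their values were seen. The genes and lists were chosen with earlier results of these data known.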

Additional observations from a re-analysis of the deposited data

How the results depend on the processing

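Of the results at 24 h, the number of the 42 genes called was 2 and became 0 on uncentred values, 0 in the fit of the 24 h arrays alone, 0 without the low-median pair, 1 with cyclic loess and 1 with the replicate block; the cause was not tested. Without that pair 1 gene, Elovl6, was called over time at 300 mOsm/kg. On uncentred values the branch medians over time moved to -0.47 (sterol) and -0.43 (fatty acid) at 640 and to -0.49 and -0.54 at 300, beside shifts of -0.41 and -0.38 in the median of all genes. With 1 array left out, 0 to 2 of the 42 genes were called at 24 h, 2 to 3 at 48 h, and 0 to 0 in each of the difference and the 2 time changes. The sterol median then ran from -0.26 to -0.16 at 24 h and from -0.22 to -0.18 at 48 h, and the fatty acid median from -0.15 to -0.06 and from -0.30 to -0.15. For the difference between times the sterol median ran from -0.052 to 0.10 and the fatty acid median from -0.15 to 0.04, for time at 640 from -0.08 to -0.01 and from -0.09 to 0.05, and for time at 300 from -0.09 to -0.0031 and from -0.16 to -0.05. Of 2371 comparisons of a single gene with its main result, 2145 kept direction and side of the threshold. A call was lost in 162 and gained in 4, 60 changed sign without being called, and 0 called changes reversed. Only a gene called in the main fit could lose its call, and most of these comparisons began from an uncalled gene. The 2145 therefore do not measure how stable the calls were.

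Over all 14506 genes the calls at 24 h went from 95 to 13 on uncentred values, 10 in the fit of the 24 h arrays alone, 17 without the low-median pair, and 26 to 78 with 1 array left out. At 48 h they went from 269 to 104 on uncentred values and 158 to 296 with 1 array left out. Calls for the difference went from 4 to 0 on uncentred values and without the pair, and to 2 with quantile normalization and with cyclic loess. Calls over time went from 20 at 640 and 37 at 300 to 0 and 0 on uncentred values and to 34 and 219 without the pair. The difference was not fitted on the compared groups alone, since it uses all 4.

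Same-numbered samples of 300 and 640 deviated together for replicate 2 alone (r = 0.84 at 24 h and 0.80 at 48 h), against -0.13 and -0.23 for replicate 1 and -0.21 and -0.22 for replicate 3. Replicate 1 of 640 instead deviated with replicate 3 of 300 (r = 0.58 and 0.63), and replicate 3 of 640 with replicate 1 of 300 (0.83 and 0.78). Outside replicate 2 the numbers as labelled therefore do not follow which samples deviated together, and whether samples were paired is not known. At 24 h the match of replicate 3 of 640 with replicate 1 of 300 is the low-median pair. Deviations cancel within each group, so these correlations are not independent of each other. The replicate block does not capture this matching, and no fit crossed the numbers, since the labels give no such pairing. The main fit treats the arrays as unpaired. With the replicate block 108 genes were called at 24 h, 332 at 48 h and 3 for the difference, and of the 42 genes 1 was called at 24 h. A block within each time cannot serve the time changes. A replicate block over all 4 groups, chosen after seeing the data, gave 35 calls at 640 and 92 at 300.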
